A study of Mus musculus with 24 samples.

Results

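Glycine tRNAs with an anticodon other than GCC are the adaptor RNAs named for the anticodons TCC, CCC and ACC. Members were the rows whose name ends in glycine plus 1 of these anticodons, which gave 15 of the 435 nuclear tRNA genes in each gene table of 53900 rows. There were 7 TCC genes, 7 CCC genes and 1 ACC gene. The same 15 genes gave 45 of 1305 rows in a table of tRNA fragments, with 3 fragment types each. At least 1 read was counted for 10 of the 15 genes in the TET2 CLIP table, for 10 of the 15 in the hm5C RIP table, and for 45 of the 45 fragment rows.

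The study measured RNA in mouse embryonic stem cells in 24 libraries, each labelled as a biological replicate. In CLIP, RNA crosslinked to a protein is recovered with that protein and sequenced. TET2 CLIP was run on E14 cells carrying Tet2 tagged with HA and His, in clones 65 and 75, with 2 TET2 CLIP and 2 input libraries per clone. Both clones had been given 500 µM 4-thiouridine for 4 h and crosslinked with 400 mJ/cm2 of UVB, and each is 1 clone of 1 parent line. RIP for 5-hydroxymethylcytosine (hm5C), an antibody recovery of RNA, had 2 hm5C RIP and 2 input libraries from untreated cells of strain B6;129. Small RNA of 14 to 38 nt was sequenced from untreated cells in 12 libraries labelled with strain B6; 129. Experiment 1 set 3 Tet2 knockout against 3 WT libraries made with TruSeq reagents. Experiment 2 set 3 libraries of another Tet2 knockout set against 3 libraries labelled E14, made with NEBNext reagents. Kit, control line and knockout set differed together between the experiments and cannot be told apart. All cells grew on gelatin in medium holding LIF and the inhibitors CHIR99021 (3 µM) and PD0325901 (1 µM). No untagged control was analysed here, and the fragment table holds only tRNA fragments, so the Tet2 knockout could not be checked in it.

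Transfer RNAs carry an amino acid to the ribosome and read the codon through the anticodon, and RNA polymerase III transcribes them from many gene copies of similar or identical sequence. They are among the most modified RNAs, and cytosines in them are methylated by NSUN2 and by TRDMT1. TET enzymes oxidise methylated cytosine in DNA, and TET2 also acts on RNA. Cleavage of tRNAs gives stable fragments: in the usual naming tRF5 comes from the 5′ end, and tRF3a and the longer tRF3b come from the 3′ end. How the deposited table defined these types is not given in the sources used here.

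The 15 genes lie on 6 chromosomes of GRCm38.p6, the assembly behind the mm10 build that the submitters' processing notes name, where RefSeq annotates 14 tRNA genes of these anticodons, against 15 in the tables. A row was matched to a position where both the tables and RefSeq hold a single gene of that anticodon on the chromosome. The ACC gene, chr11.tRNA205-GlyACC, was RefSeq n-TGacc1 at chr11:48823728-48823801. Among TCC genes, chr11.tRNA1824-GlyTCC was n-TGtcc6 at chr11:69041278-69041349 and chr3.tRNA746-GlyTCC was n-TGtcc7 at chr3:96501009-96501080. The other 5 TCC genes form a group on chromosome 1, and RefSeq has 5 such genes within chr1:171037997-171102827. Among CCC genes, chr17.tRNA112-GlyCCC was n-TGccc7 at chr17:25875088-25875158, chr4.tRNA67-GlyCCC was n-TGccc3 at chr4:32230250-32230320 and chr6.tRNA317-GlyCCC was n-TGccc4 at chr6:86403893-86403963. The other 4 CCC genes are on chromosome 3, where RefSeq has 3 within chr3:96351167-96424103, so these 4 were not matched one to one.

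Counts were raw reads per row, and total counts were 221060 to 453944 per TET2 CLIP library, 913002 to 4729463 per CLIP input, 1564014 to 2100187 per hm5C RIP library, 4641963 to 4889943 per RIP input and 96070 to 173450 per fragment library. Levels are given as CPM, the reads of a row relative to those of its library, scaled by edgeR's trimmed mean of M values. A count of 0 allows up to 6.61 to 13.6 CPM in the TET2 CLIP libraries, and 17.3 to 31.2 CPM in the fragment libraries (3 counts per library, counting error only). In the CLIP inputs, 8 of 8 embryonic stem cell markers were counted at 10 or more reads and summed to 903 to 1546 CPM. Markers of fibroblasts summed to 3.29 to 8.11 CPM there, those of extraembryonic endoderm to 6.57 to 15.0 CPM and those of trophoblast to 31.8 to 52.7 CPM. In the RIP inputs, 7 of 8 stem cell markers had 10 or more reads, and the set summed to only 22.0 to 22.9 CPM. Sums there were 2.86 to 3.23 CPM for fibroblasts, 1.72 to 2.25 CPM for extraembryonic endoderm and 0.646 to 1.64 CPM for trophoblast. One fragment library stood apart: WT replicate 1 of experiment 1 differed from WT replicates 2 and 3 with chi-square statistics of 27.5 and 29.3 per degree of freedom, against 1.7 to 4.95 for the other replicate pairs of that table. Values without that library are given beside the results that it moves by more than 1.5 times.

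Which gene copy a read was counted for differed between the tables, and how reads shared by near-identical copies were assigned is not given in the sources used here. Of all TCC reads, chr1.tRNA1012-GlyTCC held 99.6% in CLIP and 99.8% in RIP. In the fragment table the same gene held 13.1% of TCC tRF5 reads, and the 7 TCC genes shared the reads almost evenly, at 11.8% to 19.0% each for tRF5, 12.6% to 15.7% for tRF3a and 12.7% to 18.3% for tRF3b. Among CCC reads, chr3.tRNA752-GlyCCC held 77.8% in CLIP and 76.9% in RIP, and chr4.tRNA67-GlyCCC held 12.8% and 20.8%. The values of single copies are therefore uncertain, and the sum over all genes of an anticodon, which does not depend on how reads were split among its copies, is given beside them. A sum would still hold any read of another anticodon that was counted for one of its copies.

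In the fragment table the CCC genes did not share reads evenly. For tRF5, chr3.tRNA282-GlyCCC held 53.4% of CCC reads, chr3.tRNA752-GlyCCC 20.8% and chr4.tRNA67-GlyCCC 18.2%. For 3′ fragments, chr17.tRNA112-GlyCCC and chr6.tRNA317-GlyCCC led, at 31.7% and 31.1% of CCC tRF3a reads and 33.6% and 32.1% of CCC tRF3b reads. The gene with most tRF5 reads was thus nearly absent at the 3′ end: chr3.tRNA282-GlyCCC had 20865 tRF5, 3 tRF3a and 9 tRF3b reads over the 12 libraries, and 0 reads over the 8 CLIP libraries. The ACC gene had the opposite profile, with 91 tRF5, 4243 tRF3a and 437 tRF3b reads, and 8 reads over the TET2 CLIP libraries against 4 over the CLIP inputs.

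TET2 CLIP against input gave different results for the glycine anticodons. TCC reads were 8.29-fold higher in TET2 CLIP than in input, while the sum of CCC reads overlapped between TET2 CLIP and input. Of the 15 genes, 5 had enough reads to be tested, and 3 were higher and 1 lower in TET2 CLIP with both clones fitted together (edgeR's quasi-likelihood test, Benjamini-Hochberg adjusted p under 0.05 over all rows). Over the 10334 rows tested, 14.8% passed, 8.99% higher and 5.83% lower, and in 16.1% the 4 TET2 CLIP libraries did not overlap the 4 inputs. The median log2 change was 3.04 over the 5 genes and -0.03 over all rows tested, but a gene with few input reads could enter the test only through its TET2 CLIP reads.

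The TCC gene chr1.tRNA1012-GlyTCC had 597 and 730 CPM in TET2 CLIP of clone 65, against 63.0 and 55.9 CPM in its input, and 329 and 323 CPM in TET2 CLIP of clone 75, against 36.9 and 62.2 CPM in its input. No TET2 CLIP library overlapped an input, and the log2 change was 3.04 (SE 0.13, adjusted p = 1.09e-17). The change was 3.49 (SE 0.18) in clone 65 and 2.58 (SE 0.20) in clone 75, where 11.1% and 10.2% of all rows passed. The other 6 TCC genes had between 0 and 4 reads each over the 8 CLIP libraries and were not tested. In the table where each anticodon is 1 row, 14.4% of rows passed with both clones, 10.7% in clone 65 and 9.81% in clone 75. Summed over the 7 genes, TCC had 598 and 742 CPM in TET2 CLIP of clone 65 and 331 and 325 CPM in TET2 CLIP of clone 75, against 63.0, 56.0, 37.0 and 62.1 CPM in the inputs (log2 change 3.05, SE 0.13, adjusted p = 1.02e-17).

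Of the 4 tested CCC genes, 2 were higher and 1 was lower in TET2 CLIP. Both higher genes passed the count filter only through their TET2 CLIP reads, so no contrast within the CCC group is drawn from them. The gene chr6.tRNA317-GlyCCC had 83.0 and 113 CPM in TET2 CLIP of clone 65, against 4.97 and 6.41 CPM in its input, and 38.3 and 47.8 CPM in TET2 CLIP of clone 75, against 5.27 and 7.65 CPM in its input. It was higher in TET2 CLIP in both clones (log2 change 3.31, SE 0.32, adjusted p = 1.5e-09). This gene passed the count filter only through its TET2 CLIP reads. The gene chr3.tRNA752-GlyCCC, which held most CCC reads, had 71.9, 66.8, 15.8 and 39.8 CPM in the 4 TET2 CLIP libraries, against 155, 159, 123 and 132 CPM in the 4 inputs. All 4 TET2 CLIP libraries lay below all 4 inputs (log2 change -1.79, SE 0.21, adjusted p = 9.76e-08). The gene chr4.tRNA67-GlyCCC had 38.7, 36, 18 and 15.9 CPM in TET2 CLIP, against 19.6, 26.4, 19.8 and 21.5 CPM in the inputs, and the groups overlapped (log2 change 0.19, SE 0.35, adjusted p = 0.779).

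The gene chr17.tRNA112-GlyCCC had 33.2, 25.7, 33.8 and 15.9 CPM in TET2 CLIP, against 0.621, 0.916, 1.32 and 0.478 CPM in the inputs. Its log2 change of 5.08 (SE 0.63, adjusted p = 1.96e-07) rests on 30 reads in TET2 CLIP and 9 in the inputs, and the gene passed the count filter only through its TET2 CLIP reads. Within clone 75 the change was 5.11, and the call was lost without TET2 CLIP replicate 1 of clone 75 or without input replicate 2 of clone 75 (log2 changes 4.26 and 4.20, adjusted p 0.128 to 0.189).

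Summed over the 7 genes, CCC had 227 and 263 CPM in TET2 CLIP of clone 65, against 182 and 197 CPM in its input, and 108 and 119 CPM in TET2 CLIP of clone 75, against 149 and 163 CPM in its input. TET2 CLIP lay above input in clone 65 (log2 change 0.37, adjusted p = 0.244) and below it in clone 75 (-0.49, adjusted p = 0.125), and with both clones the change was -0.06 (SE 0.14, adjusted p = 0.814). The difference between the clones was 0.86 for the CCC sum (adjusted p = 0.0899) and 0.91 for the TCC sum (adjusted p = 0.0527), and 0 of the 5 tested genes passed the test of that difference, for which 2.54% of rows did (2.58% in the table of sums). For GCC, the sum was 1180 and 1232 CPM in TET2 CLIP of clone 65 and 466 and 488 CPM in TET2 CLIP of clone 75, against 285, 258, 189 and 205 CPM in the inputs (log2 change 1.71, SE 0.11, adjusted p = 2.08e-13).

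**Figure D1:**
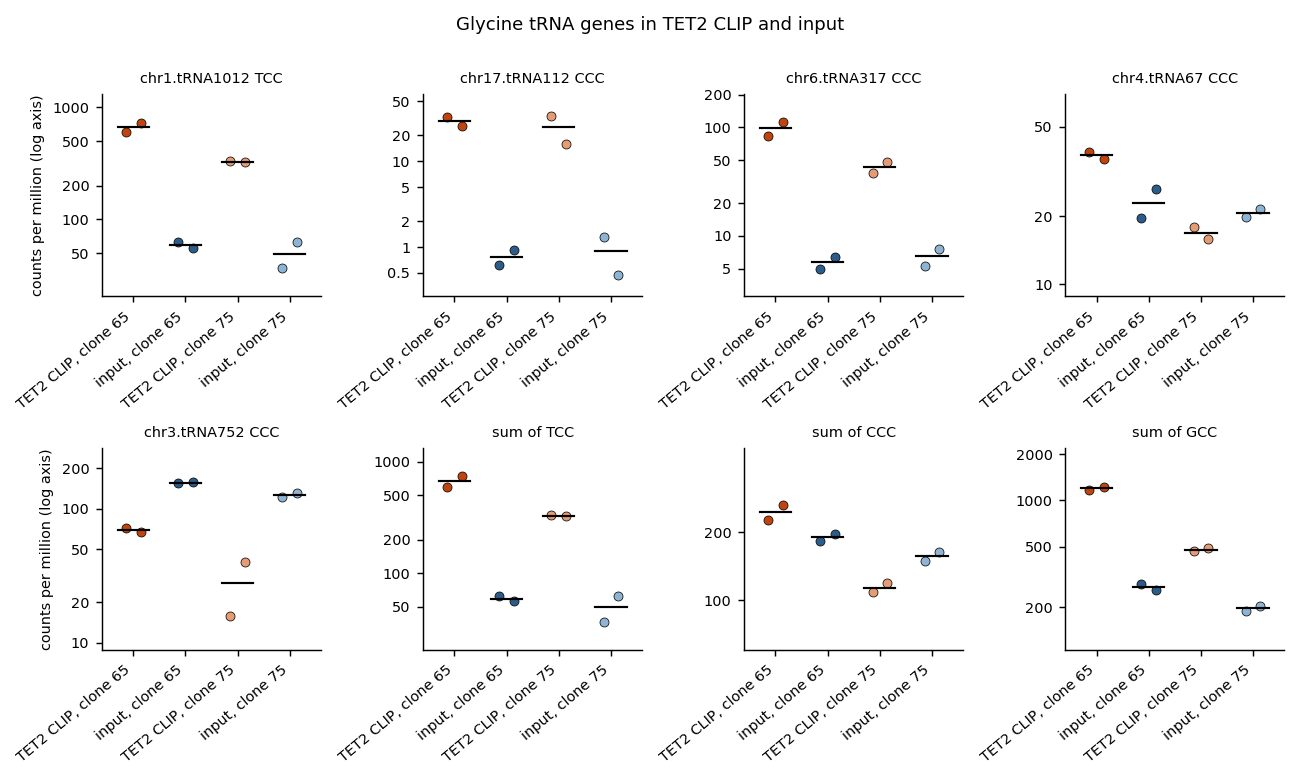
CPM (log axes, which differ between panels) of glycine tRNA genes and anticodon sums in TET2 CLIP and input of clones 65 and 75. Points are libraries, 2 per group, and bars are means; chr1.tRNA1012-GlyTCC and the TCC sum lie higher in TET2 CLIP in both clones, chr3.tRNA752-GlyCCC lies lower, and the CCC sum lies above input in clone 65 and below it in clone 75.

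Ratios within a library do not depend on scaling, and they set the anticodons apart in the same way. The log2 ratio of TCC to CCC reads was 1.40, 1.5, 1.61 and 1.45 in TET2 CLIP, against -1.53, -1.82, -2.01 and -1.39 in the inputs. TCC reads exceeded CCC reads in each TET2 CLIP library and were outnumbered by them in each input. The means were 1.49 ± 0.09 in TET2 CLIP and -1.69 ± 0.28 in input (SD, n = 4 each), a difference of 3.18. An exact permutation test within clones gave p = 0.0556 (two-sided, the smallest its 36 arrangements allow, 0.333 after adjustment over 66 such tests). The log2 ratio of TCC to GCC was -0.70 ± 0.21 in TET2 CLIP and -2.12 ± 0.27 in input, and that of CCC to GCC was -2.19 ± 0.15 in TET2 CLIP and -0.43 ± 0.15 in input, again with no overlap. These anticodon ratios were added after the single values had been seen.

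Other tRNA rows were also high in TET2 CLIP: 64 of the 70 tested tRNA genes outside glycine were higher and 1 was lower, with a median log2 change of 3.28. All 5 tested GCC genes were higher, with a median of 1.44. Outside glycine 406 genes were in the table, and here too a gene with few input reads could be tested only through its TET2 CLIP reads. The 15 genes took 0.0612% ± 0.0215 of all reads in TET2 CLIP and 0.0231% ± 0.00615 in input, but 7.89% ± 0.529 of tRNA reads in TET2 CLIP and 10.7% ± 0.737 in input (SD, n = 4 each). Fitted among nuclear tRNA rows alone, chr1.tRNA1012-GlyTCC changed by 0.26 (adjusted p = 0.096), chr6.tRNA317-GlyCCC by 0.54 (adjusted p = 0.107) and chr3.tRNA752-GlyCCC by -4.58 (adjusted p = 2.88e-61). Anticodon sums of nuclear tRNAs were fitted apart, with their own scaling. There the TCC sum was higher by 0.71 (adjusted p = 0.000167) and the CCC sum lower, by -2.43 (adjusted p = 1.81e-24). Since chr1.tRNA1012-GlyTCC held 99.6% of TCC reads, whether TCC passed as higher among tRNAs depended on the scaling.

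Of a list of 19 genes for glycyl-tRNA charging, tRNA processing, cytosine methylation and oxidation, and tRNA cleavage, 15 were tested in CLIP, 4 were higher and 1 lower. Rpph1, the RNA of the RNase P that trims the 5′ end of tRNAs, had a log2 change of 2.61, and Elac2, the enzyme that trims the 3′ end, one of 0.89. Tet3, a paralog of Tet2, changed by 0.90 and Dicer1, an endonuclease that processes small RNAs, by 0.66. Pop1, a protein subunit of RNase P, was lower (-0.84). Within clone 75 only Rpph1 passed (1.92). In clone 65 Rpph1, Tet3, Dicer1 and Ssb passed as higher and Pop1 as lower. Ssb changed by 1.53 in clone 65 (adjusted p = 0.00983), by -0.90 in clone 75 (adjusted p = 0.309) and by 0.32 with both clones (adjusted p = 0.608). Elac2 passed in neither clone alone (adjusted p = 0.264 in clone 65 and 0.0802 in clone 75).

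In hm5C RIP, no glycine gene other than GCC passed as higher than input, and the sums of TCC and CCC were both lower. Of the 15 genes, 7 were tested, with 0 higher and 4 lower (edgeR's quasi-likelihood test). Without adjustment of p the counts were also 0 and 4, with no share of all rows to set beside them. DESeq2's Wald test gave 0 higher and 3 lower, again with no share of all rows given. Over the 2081 rows tested, 51.9% passed, 33.0% higher and 18.9% lower. The median log2 change was -0.82 over the 7 genes and 0.15 over all rows.

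The TCC gene chr1.tRNA1012-GlyTCC had 25.5 and 15.8 CPM in hm5C RIP, against 56.9 and 49.6 CPM in input (log2 change -1.39, SE 0.32, adjusted p = 0.00774). The most counted CCC gene, chr3.tRNA752-GlyCCC, had 2858 and 2522 CPM in hm5C RIP, against 5547 and 6222 CPM in input (-1.13, SE 0.27, adjusted p = 0.00827). Another gene of the chromosome 3 group, chr3.tRNA755-GlyCCC, had 13.1 and 20.7 CPM in hm5C RIP, against 42.2 and 47.0 CPM in input (-1.37, SE 0.32, adjusted p = 0.00823). In these 3 genes both hm5C RIP libraries lay below both inputs, but with 2 libraries a group 77.3% of all rows did not overlap. The same held for chr3.tRNA287-GlyCCC, at 51.1 and 43.1 CPM in hm5C RIP, against 82.6 and 83.4 CPM in input (-0.82, SE 0.25, adjusted p = 0.0254), but its call was lost with library size as the only scaling (adjusted p = 0.0526) and with DESeq2's Wald test (adjusted p = 0.0611).

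The 3 other CCC genes, each the single CCC gene of its chromosome, overlapped between hm5C RIP and input. The gene chr4.tRNA67-GlyCCC had 1463 and 1106 CPM in hm5C RIP, against 1210 and 1505 CPM in input (-0.08, SE 0.28, adjusted p = 0.846). The gene chr6.tRNA317-GlyCCC had 27.5 and 33.6 CPM in hm5C RIP, against 33.4 and 31.7 CPM in input (-0.08, SE 0.28, adjusted p = 0.836). The gene chr17.tRNA112-GlyCCC had 8.51 and 5.81 CPM in hm5C RIP, against 6.06 and 3.40 CPM in input (0.58, SE 0.51, adjusted p = 0.388). The 3 tested CCC genes of chromosome 3 were thus lower in hm5C RIP, and those of chromosomes 4, 6 and 17 did not pass the test. The difference between these groups of genes was not tested. On simulated data the RIP fit recovered 29% of 2-fold changes, so a change of that size could be missed.

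In the RIP table of sums, 54.9% of rows passed. The TCC sum was 22.2 and 16.6 CPM in hm5C RIP, against 59.9 and 52.8 CPM in input (log2 change -1.55, SE 0.30, adjusted p = 0.000635), and the CCC sum was 3842 and 3834 CPM in hm5C RIP, against 7279 and 8414 CPM in input (-1.03, SE 0.21, adjusted p = 0.0011). The GCC sum was 536 and 471 CPM in hm5C RIP, against 465 and 414 CPM in input (0.20, SE 0.23, adjusted p = 0.496). Within libraries, the log2 ratio of CCC to GCC was 2.93 ± 0.13 in hm5C RIP and 4.16 ± 0.27 in input, and that of TCC to GCC was -4.71 ± 0.16 in hm5C RIP and -2.96 ± 0.01 in input (SD, n = 2 each). Neither pair of ratios overlapped, and 2 libraries against 2 cannot give an exact permutation p below 0.333. The 15 genes made up 88.5% ± 0.899 of glycine tRNA reads in hm5C RIP and 94.7% ± 0.92 in input.

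**Figure D2:**
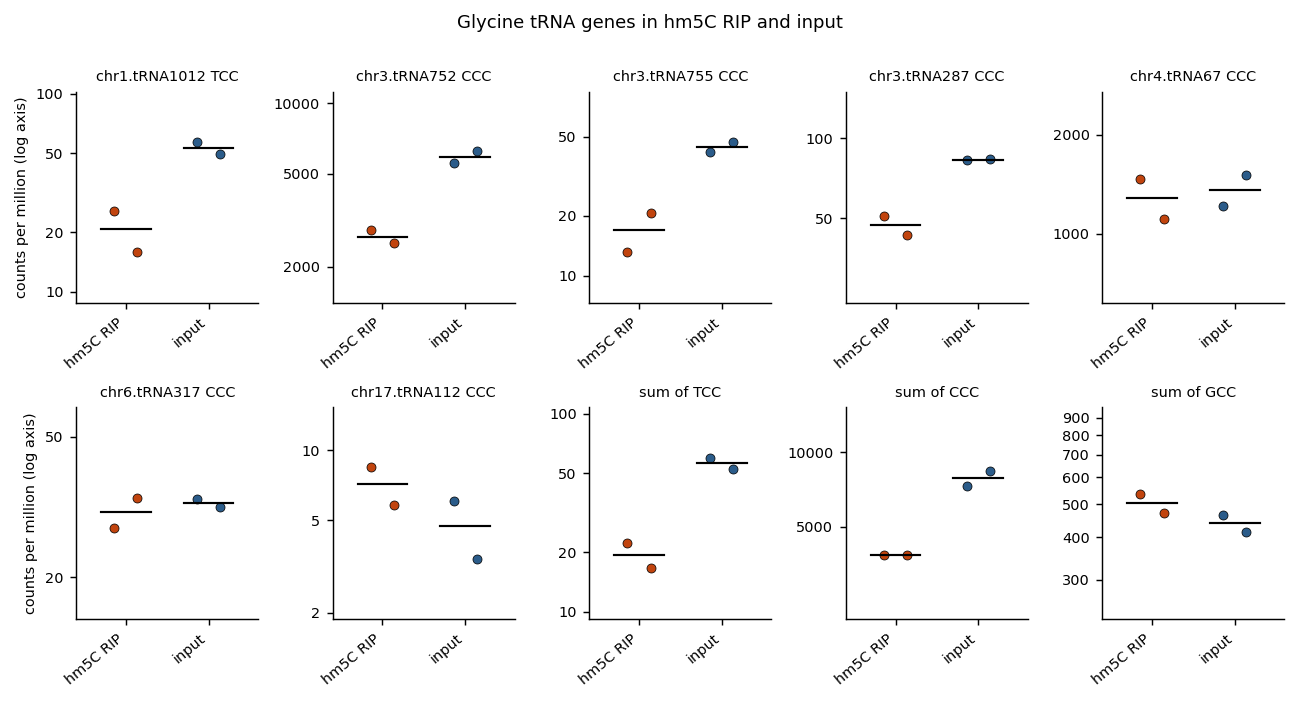
CPM (log axes, which differ between panels) of glycine tRNA genes and anticodon sums in hm5C RIP and input, with 2 libraries per group as points and means as bars. The TCC gene, the 3 plotted CCC genes of chromosome 3 and the TCC and CCC sums lie lower in hm5C RIP. These directions held with Acsl6 left out alone, and turned with Acsl6 left out and library size as the only scaling.

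These directions depend on the scaling. The single row Acsl6 took 55.2% and 60.6% of all reads in hm5C RIP, against 0.255% and 0.167% in input. With Acsl6 left out and the trimmed mean of M values kept, 4 members were again lower and 0 higher. The TCC sum then changed by -1.54 (adjusted p = 0.00024) and the CCC sum by -1.02 (adjusted p = 0.000521). With Acsl6 left out and library size as the only scaling, the median change over the rows in both fits shifted up by 1.49, and the members turned: 5 were higher and 0 lower, where 66.8% of 2523 rows were higher and 3.49% lower. Of the 4 genes lower before, chr1.tRNA1012-GlyTCC changed by 0.07, chr3.tRNA752-GlyCCC by 0.34, chr3.tRNA755-GlyCCC by 0.15 and chr3.tRNA287-GlyCCC by 0.66, and only the last passed (adjusted p = 0.0469). These changes lie below the median of all rows under that scaling, 1.99. The TCC sum was then 0.09 and the CCC sum 0.61, the second with an adjusted p of 0.00777. Fitted among nuclear tRNA rows alone, where Acsl6 does not enter, the TCC sum was lower by -1.22 and the CCC sum by -0.69. There 4 members were again lower and 0 higher. For that fit, and for the one that dropped Acsl6 but kept the trimmed mean, no share of all rows is given. Among the other nuclear tRNAs, 20 of 106 tested genes were higher and 18 lower, and 2 of 4 tested GCC genes were higher.

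In the pathway list, 4 of 19 genes could be tested in RIP. Rpph1 was lower (log2 change -1.35, adjusted p = 0.0054), while Dicer1 (1.03), Tet2 (0.82) and Tet1 (0.62) did not pass.

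Among small RNA fragments, Tet2 knockout against WT in experiment 1 gave opposite changes for 2 of the anticodons: the tRF3a fragment of the ACC gene was higher in the knockout, and TCC fragments of all 3 types were lower. Of the 45 rows, 31 were tested, 2 were higher and 4 lower (edgeR's quasi-likelihood test, adjusted p under 0.05). Over the 598 rows tested, 38.0% passed, 21.2% higher and 16.7% lower, and in 55.5% the groups did not overlap. The fragment types differed over all tRNAs: 83 of 184 tested tRF3a rows were higher and 16 lower (median 0.61), 41 of 184 tRF3b rows were higher and 4 lower (median 0.45), and 3 of 230 tRF5 rows were higher and 80 lower (median -0.76). Without adjustment of p, 3 members passed as higher and 12 as lower, but the share of all rows passing without adjustment is not given here.

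The ACC gene chr11.tRNA205-GlyACC had 3450, 3373 and 2888 CPM of tRF3a in Tet2 knockout, against 1567, 1466 and 1653 CPM in WT. The 3 knockout libraries lay above the 3 WT libraries, by 2.07-fold (log2 change 1.05, SE 0.15, adjusted p = 0.00384), and the call held when any 1 library was left out (0.99 to 1.17). Its tRF3b was 686, 537 and 650 CPM in Tet2 knockout, against 433, 462 and 482 CPM in WT (0.44, SE 0.19, adjusted p = 0.0917). As a share of the gene's own fragments, tRF3a made up 82.5%, 85.8% and 81.0% in Tet2 knockout, against 77.6%, 74.7% and 75.8% in WT, with no overlap. An exact two-sided permutation test of 3 libraries against 3 cannot go below p = 0.1, which is what it gave.

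All 15 tested TCC rows had a change below 0 (median -0.67, against 0.04 over all rows). They come from 7 similar copies that shared the reads almost evenly, so they are not 15 independent measurements. Of them 0 passed as higher and 3 as lower, each a tRF3b row, and 12 did not pass. The tRF3b of chr1.tRNA1012-GlyTCC had 168, 186 and 139 CPM in Tet2 knockout, against 423, 284 and 349 CPM in WT (log2 change -1.08, SE 0.24, adjusted p = 0.0105). The tRF3b of chr1.tRNA1003-GlyTCC changed by -0.83 (adjusted p = 0.0224) and that of chr1.tRNA1009-GlyTCC by -0.74 (adjusted p = 0.0372). The call of chr1.tRNA1003-GlyTCC was lost without any 1 knockout library (adjusted p 0.0681 to 0.0717), and that of chr1.tRNA1009-GlyTCC also without WT replicate 2 or 3 (0.0601 to 0.14). With library size as the only scaling, which moved the median of all rows up by 0.46, each of the 3 calls was lost and the changes were -0.60, -0.39 and -0.33.

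Summing the copies gave lower TCC levels in Tet2 knockout for each fragment type, in a table of 135 sums of which 46.7% passed, 25.9% higher and 20.7% lower. TCC tRF3a was 914, 838 and 886 CPM in Tet2 knockout, against 1539, 1605 and 1335 CPM in WT (-0.76, SE 0.16, adjusted p = 0.00161). TCC tRF3b was 1420, 1157 and 1224 CPM in Tet2 knockout, against 2158, 2064 and 2144 CPM in WT (-0.74, SE 0.15, adjusted p = 0.00142). The knockout libraries lay below the WT libraries in both, but with library size as the only scaling the changes were -0.25 and -0.24 and the calls were lost (adjusted p = 0.583 for both). TCC tRF5 was 274, 319 and 283 CPM in Tet2 knockout, against 1229, 587 and 573 CPM in WT (-1.44, SE 0.30, adjusted p = 0.00185), and without WT replicate 1, the highest library, it was -0.98 (adjusted p = 0.0014). In the table of sums, with its own scaling, ACC tRF3a was 3370, 3132 and 2841 CPM in Tet2 knockout, against 1570, 1513 and 1645 CPM in WT (0.98, SE 0.16, adjusted p = 0.000154).

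CCC fragments gave 1 higher and 1 lower row among the 14 tested. The tRF3b of chr6.tRNA317-GlyCCC had 873, 974 and 854 CPM in Tet2 knockout, against 505, 577 and 671 CPM in WT (log2 change 0.62, SE 0.19, adjusted p = 0.0315). The groups did not overlap, but the call was lost without WT replicate 2 or 3 or any knockout library (adjusted p 0.053 to 0.0923). The tRF5 of chr3.tRNA282-GlyCCC had 3494, 2729 and 3417 CPM in Tet2 knockout, against 27157, 5828 and 5469 CPM in WT (-2.00, SE 0.64, adjusted p = 0.0416). Without WT replicate 1, whose value lies far above the others, the change was -0.82 (adjusted p = 3.38e-05). The call was lost without any 1 knockout library (adjusted p 0.106 to 0.119).

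The other well-counted CCC tRF5 rows did not pass the test in experiment 1. The tRF5 of chr3.tRNA752-GlyCCC had 6488, 5730 and 7828 CPM in Tet2 knockout, against 7524, 6788 and 6158 CPM in WT (-0.03, SE 0.25, adjusted p = 0.924). The tRF5 of chr4.tRNA67-GlyCCC had 6002, 5715 and 6519 CPM in Tet2 knockout, against 7462, 6272 and 5025 CPM in WT (-0.04, SE 0.25, adjusted p = 0.901). Both overlapped between the groups, and WT replicate 1 was the highest WT library in each but did not lie apart from the rest. The tRF5 of chr3.tRNA755-GlyCCC had 474, 516 and 631 CPM in Tet2 knockout, against 804, 675 and 661 CPM in WT, without overlap but also without passing (-0.40, SE 0.20, adjusted p = 0.128). The tRF5 of chr3.tRNA287-GlyCCC (-0.17, adjusted p = 0.487) and the tRF3b of chr17.tRNA112-GlyCCC (0.39, adjusted p = 0.217) overlapped. The CCC tRF5 sum was 16934, 14637 and 19232 CPM in Tet2 knockout, against 46390, 21472 and 18333 CPM in WT (-0.76, SE 0.35, adjusted p = 0.102). It was -0.23 without WT replicate 1 and -1.04 without WT replicate 3, and only the second passed (adjusted p = 0.0305). The sums of CCC tRF3a (-0.33, adjusted p = 0.123) and CCC tRF3b (0.27, adjusted p = 0.152) did not pass.

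**Figure D3:**
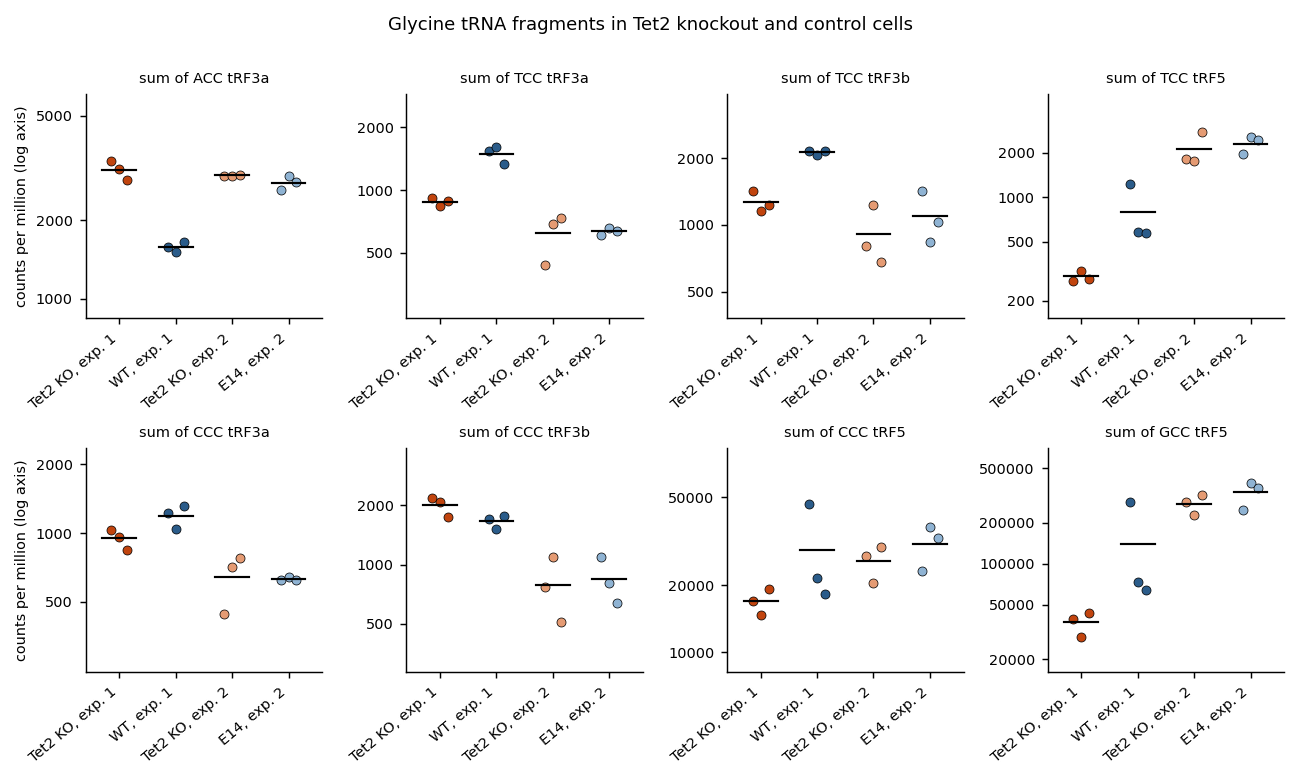
CPM (log axes, which differ between panels) of fragment sums per anticodon in Tet2 knockout and control libraries of experiments 1 and 2, with 3 libraries per group as points and means as bars. In experiment 1, ACC tRF3a lies higher and TCC fragments lie lower in Tet2 knockout than in WT; in experiment 2 the TCC and CCC groups overlap. With library size as the only scaling, TCC tRF3a, TCC tRF5 and CCC tRF5 of experiment 2 turned direction.

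The tRF5 of chr3.tRNA282-GlyCCC lay close to a fixed share of that of GCC. It was chosen for this after its values were seen, so the following is a description with no test. As a percentage of the GCC tRF5 reads of the same library, it was 8.60%, 8.71% and 7.68% in Tet2 knockout of experiment 1, against 9.66%, 8.21% and 8.43% in WT. In experiment 2 it was 6.24%, 6.01% and 6.45% in Tet2 knockout, against 6.24%, 6.46% and 6.37% in E14. The highest and lowest of these percentages differ by 1.26-fold in experiment 1 and 1.07-fold in experiment 2, while the GCC tRF5 sum itself spanned 29075 to 281756 CPM in experiment 1.

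The same percentage for chr3.tRNA752-GlyCCC was 16.0%, 18.3% and 17.6% in Tet2 knockout of experiment 1, against 2.68%, 9.56% and 9.49% in WT, a span of 6.83-fold, or 1.93-fold without WT replicate 1. For chr4.tRNA67-GlyCCC it was 14.8%, 18.3% and 14.7% in Tet2 knockout, against 2.65%, 8.84% and 7.74% in WT, a span of 6.91-fold, or 2.36-fold without WT replicate 1. In experiment 2 the percentage was 1.55%, 1.37% and 1.24% in Tet2 knockout, against 1.35%, 1.24% and 1.16% in E14, for chr3.tRNA752-GlyCCC, and 1.38%, 1.18% and 1.02% in Tet2 knockout, against 1.09%, 0.901% and 0.863% in E14, for chr4.tRNA67-GlyCCC. In experiment 1 both were thus highest in the knockout libraries and lowest in WT replicate 1, unlike chr3.tRNA282-GlyCCC. The less counted tRF5 of chr17.tRNA112-GlyCCC and chr6.tRNA317-GlyCCC spanned 2.36-fold and 1.86-fold in experiment 1, with WT replicate 1 at 0.487% and 0.502%, near the other WT libraries. Whether reads of GCC genes were counted for chr3.tRNA282-GlyCCC was not tested, since no tRNA sequences were used here; the CCC tRF5 sum and the ratios of members to GCC carry the same doubt. The GCC tRF5 sum was 39670, 29075 and 43753 CPM in Tet2 knockout, against 281756, 73277 and 64598 CPM in WT (-1.90, SE 0.61, adjusted p = 0.035), and without WT replicate 1 it was -0.88 (SE 0.16, adjusted p = 0.000255).

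**Figure D4:**
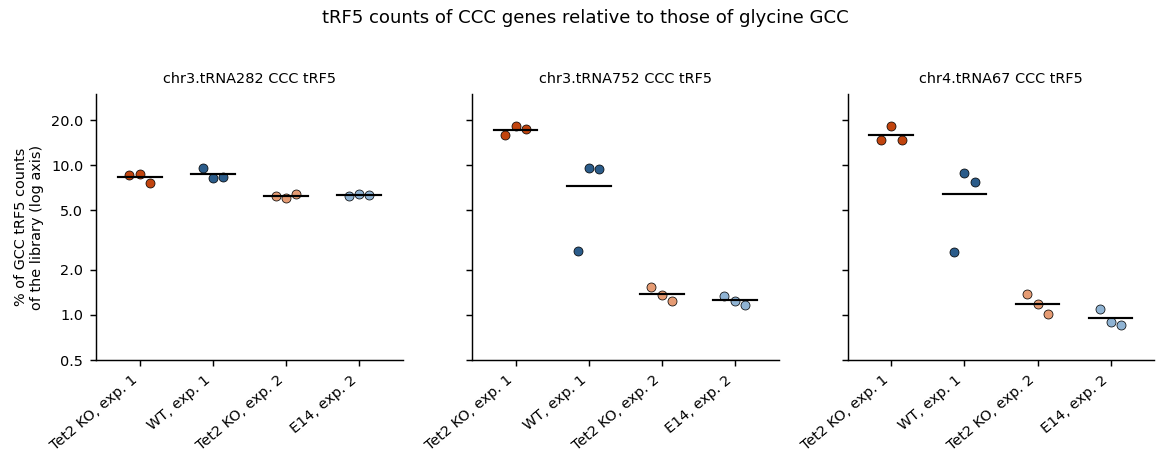
The tRF5 reads of 3 CCC genes as a percentage of the GCC tRF5 reads of the same library (log axis), with 3 libraries per group as points and means as bars. The percentage of chr3.tRNA282-GlyCCC stays between 7.68% and 9.66% in experiment 1 and between 6.01% and 6.46% in experiment 2, while those of chr3.tRNA752-GlyCCC and chr4.tRNA67-GlyCCC lie higher in Tet2 knockout than in WT in experiment 1.

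In experiment 2, Tet2 knockout against E14, 42 of the 45 rows were tested and 0 passed edgeR's quasi-likelihood test, where 15.1% of 498 rows did, 9.64% higher and 5.42% lower. The groups did not overlap in 30.5% of rows. Without adjustment, 0 passed as higher and 3 as lower: chr1.tRNA708-GlyTCC tRF3b (-0.71), chr17.tRNA112-GlyCCC tRF5 (-0.92) and chr3.tRNA287-GlyCCC tRF5 (-0.57). DESeq2's Wald test called the last of these, at -0.69 (adjusted p = 0.0472). The share of all rows passing without adjustment is not given here. The median change was 0.04 over the 42 rows and 0.09 over all rows.

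The ACC tRF3a had 3369, 3103 and 3005 CPM in Tet2 knockout, against 2783, 2641 and 2563 CPM in E14. The knockout libraries lay above the E14 libraries, as in experiment 1, but the log2 change of 0.25 (SE 0.17) did not pass (adjusted p = 0.405). It lay below the median of all 204 tested tRF3a rows, 0.31, of which 42 were higher and 0 lower. The TCC sums were 437, 685 and 739 CPM in Tet2 knockout, against 613, 661 and 636 CPM in E14, for tRF3a (-0.05, SE 0.23), and 806, 1233 and 682 CPM in Tet2 knockout, against 1424, 837 and 1032 CPM in E14, for tRF3b (-0.28, SE 0.25). The TCC tRF5 sum was 1807, 1743 and 2762 CPM in Tet2 knockout, against 1946, 2535 and 2430 CPM in E14 (-0.13, SE 0.22). All 3 TCC sums overlapped, in a table where 11.4% of sums passed, and with library size as the only scaling tRF3a (0.22) and tRF5 (0.13) turned direction.

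The tRF5 of chr3.tRNA282-GlyCCC was 20014, 14255 and 20755 CPM in Tet2 knockout, against 16677, 22858 and 20962 CPM in E14 (-0.14, SE 0.16). The CCC tRF5 sum was 27123, 20586 and 29918 CPM in Tet2 knockout, against 23146, 36785 and 32537 CPM in E14 (-0.25, SE 0.20, adjusted p = 0.477, and 0.02 with library size as the only scaling). Both overlapped between knockout and E14. The tRF5 of chr3.tRNA752-GlyCCC was 4960, 3247 and 3973 CPM in Tet2 knockout, against 3611, 4387 and 3820 CPM in E14 (0.04, SE 0.16), and that of chr4.tRNA67-GlyCCC was 4420, 2803 and 3292 CPM in Tet2 knockout, against 2913, 3190 and 2841 CPM in E14 (0.23, SE 0.17). These overlapped too. The tRF3b of chr6.tRNA317-GlyCCC, higher in knockout in experiment 1, had 114, 176 and 57.4 CPM in Tet2 knockout, against 260, 143 and 76.8 CPM in E14, with overlap (-0.47, SE 0.43, adjusted p = 0.574).

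**Figure D5:**
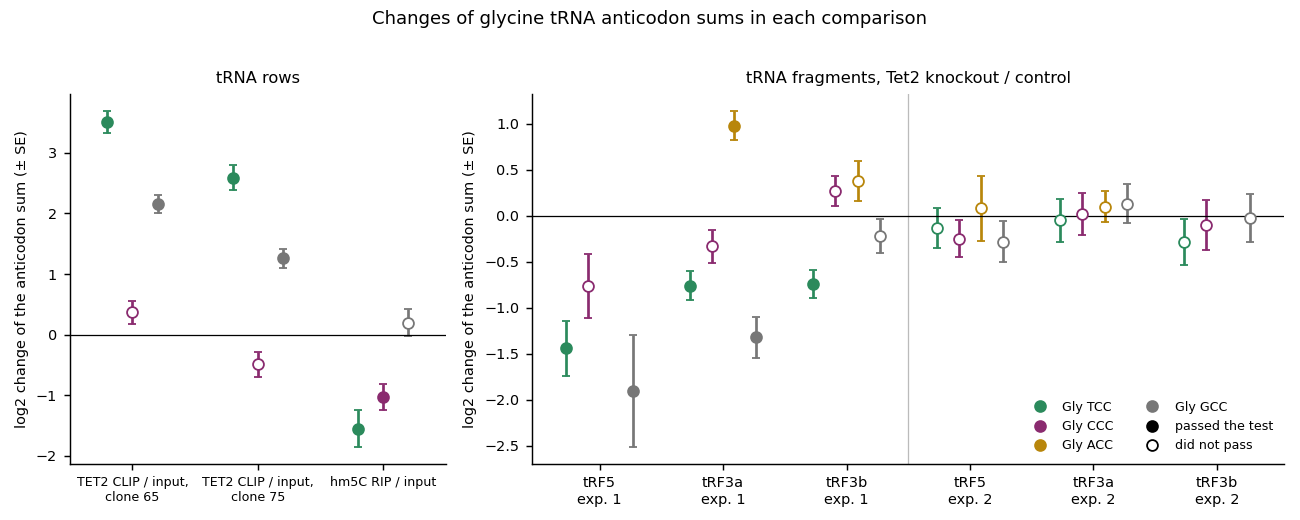
Log2 change (points, ± SE) of the glycine anticodon sums in TET2 CLIP against input per clone and in hm5C RIP against input (left), and in Tet2 knockout against control per fragment type and experiment (right). Filled points passed the test. TCC is higher in TET2 CLIP in both clones, and lower in hm5C RIP and in Tet2 knockout of experiment 1. The TCC and CCC directions in hm5C RIP held with Acsl6 left out alone. They turned with Acsl6 left out and library size as the only scaling. With library size as the only scaling, 3 points of experiment 2 (TCC tRF5, TCC tRF3a, CCC tRF5) also turned.

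With both experiments in 1 fit, 43 of the 45 rows were tested, 1 was higher and 1 lower, where 25.2% of 698 rows passed, 17.3% higher and 7.88% lower. By fragment type over all tRNAs, 94 of 220 tested tRF3a rows were higher and 4 lower (median 0.48). Among 262 tRF5 rows, 9 were higher and 51 lower (median -0.28). The higher member row was the ACC tRF3a (log2 change 0.80, SE 0.13, adjusted p = 1.76e-05), which held without any 1 library (0.66 to 0.84). The lower member row was chr17.tRNA112-GlyCCC tRF5 (-0.88, SE 0.32, adjusted p = 0.0442), at 218, 286 and 316 CPM in Tet2 knockout of experiment 1, against 1371, 275 and 312 CPM in WT. Without WT replicate 1 it was -0.49, and its call held only without WT replicate 2 or 3 or Tet2 knockout replicate 3 of experiment 1, of 12 fits that left out 1 library. Among the sums, ACC tRF3a (0.56, adjusted p = 0.00251) held without any 1 library, and TCC tRF5 (-0.78, adjusted p = 0.00485) was lost without Tet2 knockout replicate 1 of experiment 1 (-0.53, adjusted p = 0.0627), and without WT replicate 1 it was -0.52 (adjusted p = 0.0104).

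The sums of TCC tRF3a (-0.39, adjusted p = 0.0302) and TCC tRF3b (-0.48, adjusted p = 0.0382) were each lost in 9 of 12 such fits, with changes as small as -0.17 and -0.28. The first held only without WT replicate 3 of experiment 1 or Tet2 knockout replicate 2 or 3 of experiment 2, and the second only without WT replicate 1 of experiment 1, E14 replicate 2 or Tet2 knockout replicate 2 of experiment 2. With library size as the only scaling, none of the 3 TCC sums passed, at -0.01 for tRF3a, -0.13 for tRF3b and -0.34 for tRF5. In the table of sums, 35.0% of 137 rows passed, 16.1% higher and 19.0% lower. A test of whether the change in knockout differed between the experiments passed for 16.3% of single rows and 23.4% of sums, among them ACC tRF3a, whose change was larger in experiment 1 by 1.34 (SE 0.27, adjusted p = 0.00137). That call was lost without any 1 library of experiment 2 (0.72 to 0.83), with no count filter (0.84, adjusted p = 0.0767) and with library size as the only scaling (1.12, adjusted p = 0.0613). The median of this difference was 0.39 over all single rows tested and 0.48 over tRF3a rows.

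The make-up of the fragments by type differed more between experiments than between knockout and control. Of TCC fragments, tRF5 made up 12% ± 1.65 in Tet2 knockout and 17.6% ± 6.34 in WT of experiment 1, and 57.6% ± 9.32 in Tet2 knockout and 57.0% ± 7.28 in E14 of experiment 2 (SD, n = 3 each). Of CCC fragments, tRF5 made up 85.0% ± 2.83 in Tet2 knockout and 89.7% ± 4.25 in WT, and 94.5% ± 2.22 in Tet2 knockout and 95.2% ± 1.81 in E14. Of ACC fragments, tRF3a made up 83.1% ± 2.45 in Tet2 knockout and 76.0% ± 1.46 in WT, and 96% ± 0.737 in Tet2 knockout and 95.5% ± 1.11 in E14. The TCC and CCC shares overlapped between knockout and control in both experiments, and the ACC share did so in experiment 2. Without WT replicate 1, the difference of the tRF5 share in experiment 1 was -1.93 percentage points for TCC, against -5.58 with it, and -2.49 for CCC, against -4.70 with it. Over both experiments the ACC share gave p = 0.02 in an exact two-sided permutation test within experiments (0.33 after adjustment).

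As a share of all glycine fragments, the 15 genes made up 40.2% ± 2.92 in Tet2 knockout and 24.7% ± 7.15 in WT of experiment 1, and 10.9% ± 0.312 in Tet2 knockout and 10.5% ± 0.519 in E14 of experiment 2 (SD, n = 3 each). The log2 ratio of their reads to GCC reads was -0.57 ± 0.17 in Tet2 knockout and -1.65 ± 0.60 in WT of experiment 1, with no overlap, and -3.03 ± 0.05 in Tet2 knockout and -3.09 ± 0.08 in E14 of experiment 2, with overlap. An exact two-sided permutation test within experiments gave p = 0.015 for the difference of 0.57 over both experiments (0.33 after adjustment). In experiment 1 the difference was 1.07, and 0.73 without WT replicate 1. Of all fragment reads, the 15 genes made up 3.14% ± 0.0684 in Tet2 knockout and 3.00% ± 0.255 in WT, and 3.71% ± 0.104 in Tet2 knockout and 3.53% ± 0.113 in E14, with overlap in both experiments.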

How the data were processed

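The deposited tables hold raw read counts, 1 column per library: whole numbers with differing column sums, per gene (CLIP, RIP) or per tRNA gene and fragment type. The tools named are Bowtie2 2.2.6, STAR 2.5.3a, cutadapt and UMI-tools, and the build is mm10, per the submitters' processing notes; their roles, the counting tool, annotation, strand and treatment of reads that map to several copies are not given in the sources used here.

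Groups followed the sample labels. Members and gene lists were chosen with earlier results of these data known. Counts were fitted in R 4.3.3 with edgeR 4.0.16 (trimmed mean of M values, filterByExpr with a count minimum of 10, quasi-likelihood test with Benjamini-Hochberg adjustment over all tested rows, threshold 0.05). The 8 CLIP libraries entered 1 fit with a mean per group, and both fragment experiments were fitted apart and together. Anticodon sums were fitted in tables where each anticodon is 1 row. Single values were compared by exact permutation of samples (numpy 2.4.6, 66 tests). Named were every member gene that passed the count filter in CLIP or RIP, every fragment row past the threshold, the 8 fragment rows with the highest mean CPM and the anticodon sums; a few further fragment rows of experiment 2, and chr3.tRNA282-GlyCCC as a share of GCC, were chosen after their values were seen. Alternatives were DESeq2 1.42.0, other scalings, no count filter, tRNA rows alone, the most counted row of an anticodon left out, the replicate block, Acsl6 or the most counted fragment left out, and each library left out. The fits were tested on simulated data with known changes. Of 2-fold changes, 53% were recovered in CLIP, 29% in RIP, 68% in experiment 1, 81% in experiment 2 and 80% in both experiments. Of 4-fold changes, 98%, 74%, 99%, 97% and 100% were recovered, in the same order. No tRNA sequences were used. Floors of 3 counts cover counting error only.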

Additional observations from a re-analysis of the deposited data

Results flagged for a closer look

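The change in Tet2 knockout differed between experiments 1 and 2 in 2 fragment rows and 3 anticodon sums, by a test of the difference itself (edgeR's quasi-likelihood test of the interaction, Benjamini-Hochberg adjusted). With library size as the only scaling each of these 5 calls was lost (adjusted p 0.0613 to 0.393). Of all rows tested, 16.3% passed that test among single rows and 23.4% among sums. The median difference was itself above 0, at 0.39 over all single rows, 0.48 over tRF3a rows and 0.90 over tRF3b rows. Part of the difference of a single row is thus shared with other rows. Kit, control line and knockout set differed together between the experiments and cannot be told apart as sources of any of these differences.

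In the fit of both experiments, the ACC tRF3a of chr11.tRNA205-GlyACC changed by 1.34 more on the log2 scale in experiment 1 than in experiment 2 (SE 0.27, adjusted p = 0.00137). With the experiments fitted apart, its changes were 1.05 and 0.25. The call was lost without any 1 of the 6 libraries of experiment 2, at 0.72 to 0.83. As a sum with its own scaling, ACC tRF3a differed by 0.82 (SE 0.26, adjusted p = 0.0292), and the call was lost without WT replicate 3 of experiment 1, E14 replicate 2 or 3, or Tet2 knockout replicate 3 of experiment 2 (adjusted p 0.0507 to 0.061).

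The tRF3b of chr6.tRNA317-GlyCCC differed by 1.60 (SE 0.54, adjusted p = 0.0379), and the call was lost in 10 of 12 fits that left out 1 library, at 0.57 to 1.65. With the experiments fitted apart, its changes were 0.62 and -0.47. Without WT replicate 1 of experiment 1 the difference was 0.94 (adjusted p = 0.169). The call held without WT replicate 2 or 3.

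The TCC tRF5 sum fell by 1.36 more on the log2 scale in experiment 1 than in experiment 2 (SE 0.39, adjusted p = 0.0236). The call was lost without WT replicate 2 or any 1 knockout library of experiment 1, at -0.96 to -0.70. Without WT replicate 1 the difference was -0.88 (adjusted p = 0.0458). The TCC tRF3a sum differed by -0.77 (SE 0.27, adjusted p = 0.0445), and the call was lost in 8 of 12 fits that left out 1 library, at -0.84 to -0.18. It held only without WT replicate 3 of experiment 1, E14 replicate 1 or 3, or Tet2 knockout replicate 1 of experiment 2.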

How the results depend on the processing

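Of 978 alternative values over 75 results, 798 kept direction and side of the threshold, and 16 turned direction. For the counts of passing members below, the share of all rows passing in the same fit is given for only 1 setting. It is the RIP fit that dropped Acsl6 and scaled by library size, where 66.8% of rows were higher and 3.49% lower. Among nuclear tRNA rows alone, CLIP counted 0 members higher and 2 lower with both clones, 1 and 2 in clone 65, and 0 and 2 in clone 75, and the CCC sum changed by -2.43. The share of reads held by the members was higher in TET2 CLIP of all reads, but lower of tRNA reads (-2.85 percentage points) and of glycine reads (-3.64). Leaving out 1 library gave 2 to 3 members higher in clone 75. In RIP, Acsl6 left out alone kept 4 members lower and 0 higher. Acsl6 left out with library size alone gave 5 members higher and 0 lower, with turned changes of chr1.tRNA1012-GlyTCC (0.07), chr3.tRNA287-GlyCCC (0.66), chr3.tRNA752-GlyCCC (0.34), chr3.tRNA755-GlyCCC (0.15), the CCC sum (0.61) and the TCC sum (0.09). The cause was not tested.

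In experiment 1, 1 member was higher with DESeq2's Wald test or the replicate block, and 1 to 2 with 1 library left out. There 7 were lower with DESeq2 size factors, 1 with library size alone, 1 with the replicate block and 1 to 9 with 1 library left out. For these alternative fragment fits and those below, no share of all rows is given, so the counts have no background to compare. In experiment 2, 1 was lower with DESeq2 size factors or Wald test and 0 to 1 with 1 library left out. In both experiments together, 2 were higher with library size alone, and 2 were lower with DESeq2 size factors, 0 with library size alone, 3 with no count filter, 4 with DESeq2's Wald test and 0 to 5 with 1 library left out. With library size alone, TCC tRF3a (-0.25) and tRF3b (-0.24) of experiment 1 no longer passed, and in experiment 2 CCC tRF5 (0.02), TCC tRF3a (0.22, and 0.0 with no count filter) and TCC tRF5 (0.13) turned. With 1 library left out, CCC tRF5 of experiment 1 ranged from -1.04 to -0.23, TCC tRF3a of experiment 2 from -0.14 to 0.22, TCC tRF5 of experiment 2 from -0.32 to 0.05, and the difference in the tRF5 share of TCC fragments over both experiments from -4.58 to 0.027. Replicate numbers did not pair samples: deviations of same-numbered samples correlated at -0.01 and 0.02 in CLIP, 0.03 in RIP and -0.33 to 0.27 in the fragment table.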
